A study of Mus musculus with 6 samples.

Results

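The cells described here carried RNA of both Cd34 and Flt3 in the bone marrow of mice with MLL-AF9 leukaemia (MA9). They were chosen from measured values: a barcode counted when it held at least 500 genes and at most 10% mitochondrial UMIs (unique molecular identifiers, 1 for each captured RNA molecule). It also needed at least 1 UMI of Cd34 and 1 of Flt3, and fewer than 3 UMIs summed over the stem-cell and mast-lineage genes Gata2, Hlf, Angpt1, Adgrg1 and Cpa3. The rule found 1507 such double positives among 37241 kept MA9 cells, and among 44672 kept cells in all 6 libraries of the series.

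Each of the 4 MA9 groups was 1 droplet single-cell library. The labels give them as MLL-AF9 Shp-1 Δ/Δ marrow after Arac+Dox (written AraC+Dox here, called chemo in the titles, with Arac standing for cytarabine and Dox not spelled out), Shp-1 Δ/Δ after PBS, Shp-1 f/f after AraC+Dox, and Shp-1 f/f after PBS. Shp-1 is the phosphatase encoded by Ptpn6, f/f the floxed allele and Δ/Δ its deletion. Every mouse carried MLL-AF9, brought in through mouse embryonic stem cells; red cells were lysed, and no sort, dose, time, age, Cre driver or number of pooled mice is given in the labels. The series title poses a question on energy use in leukaemia stem cells, Shp-1 and Pfkp, the platelet-type phosphofructokinase of glycolysis.

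In normal mouse marrow, Cd34, a sialomucin of the cell surface, appears on progenitors that have left the most dormant stem cell state. Flt3, the receptor tyrosine kinase for FLT3 ligand, marks multipotent progenitors that keep lymphoid and dendritic potential and are losing the potential to form platelets and red cells. MLL-AF9 is a fusion of a histone methyltransferase with a transcription elongation factor; it keeps the Hoxa cluster and Meis1 switched on and causes acute myeloid leukaemia, in which blasts resemble granulocyte and macrophage progenitors.

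Libraries held between 9090 and 10748 barcodes, of which 8614 to 9750 were kept, with a median of 6675 to 10112.5 UMIs per kept cell. Of 37096 different kept barcodes, 145 occurred in at least 2 MA9 libraries. With 1 library for each group, no difference between libraries could be tested. Ratios between them are given with exact 95% intervals that cover counting error only. Within each library the double positives were set against other cells, and the 4 libraries served as 4 pairs in edgeR's quasi-likelihood test with Benjamini-Hochberg adjustment over all genes and the library as a block. These p-values measure how evenly a difference recurred over the 4 libraries, which differ in label and drug and are not repeats of 1 condition.

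Ptpn6, the gene named in the genotype, went against 2 labels. In the double positives it stood at 42.7 CPM where labelled Δ/Δ AraC+Dox (CPM, UMIs of the gene per 1000000 UMIs of the pooled cells; interval 35.4 to 51.2), and at 199 CPM (191 to 208) in the library labelled Δ/Δ PBS. The libraries labelled f/f had 188 CPM (139 to 248, from 49 UMIs in 22 cells) after AraC+Dox and 231 CPM (210 to 253) after PBS. In all other kept cells the levels were 43.7 CPM labelled Δ/Δ AraC+Dox, 168 CPM labelled Δ/Δ PBS, 57.3 CPM labelled f/f AraC+Dox and 184 CPM labelled f/f PBS. So the library labelled Δ/Δ PBS lay near the library labelled f/f PBS, and the library labelled f/f AraC+Dox was low outside the double positives. Which exons the deletion removes is not stated in the labels. A tag from a 3′ end that the deletion leaves in place checks nothing. Libraries are therefore named by their labels, and no ratio between them is read as an effect of Shp-1 or of the drugs. Whether labels were exchanged between libraries, which would change the drug as well as the genotype, was not tested. Ptpn6 (GRCm38 chr6:124720707-124738714, minus strand) did not pass the test between double positives and other cells (log2 fold change 0.35, SE 0.18, adjusted p = 0.226, edgeR's quasi-likelihood test).

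Double positives were most frequent in the library labelled Δ/Δ PBS. They made up 234 of 9446 kept cells (2.48%, exact interval 2.17 to 2.81) labelled Δ/Δ AraC+Dox and 1032 of 9431 (10.9%, 10.3 to 11.6) labelled Δ/Δ PBS. They made up 22 of 9750 (0.226%, 0.141 to 0.341) labelled f/f AraC+Dox and 219 of 8614 (2.54%, 2.22 to 2.90) labelled f/f PBS. The intervals of the library labelled Δ/Δ PBS and of the library labelled f/f AraC+Dox overlapped no other, while those labelled Δ/Δ AraC+Dox and f/f PBS overlapped each other. Finding 2 low transcripts needs depth, and the double positives had a median of 9908 UMIs against 10119.5 in other cells labelled Δ/Δ AraC+Dox, 9436 against 6989 labelled Δ/Δ PBS, 9709 against 7773.5 labelled f/f AraC+Dox and 7291 against 6654 labelled f/f PBS. After every cell was thinned to 3000 UMIs the shares were 0.749% (58 of 7748 cells) labelled Δ/Δ AraC+Dox, 6.58% (463 of 7039) labelled Δ/Δ PBS, 0.0588% (5 of 8500) labelled f/f AraC+Dox and 1.05% (77 of 7352) labelled f/f PBS. Cells too shallow to thin numbered 1698, 2392, 1250 and 1262 in the same 4 libraries in that order. The order of the shares was kept at equal depth.

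**Figure D1:**
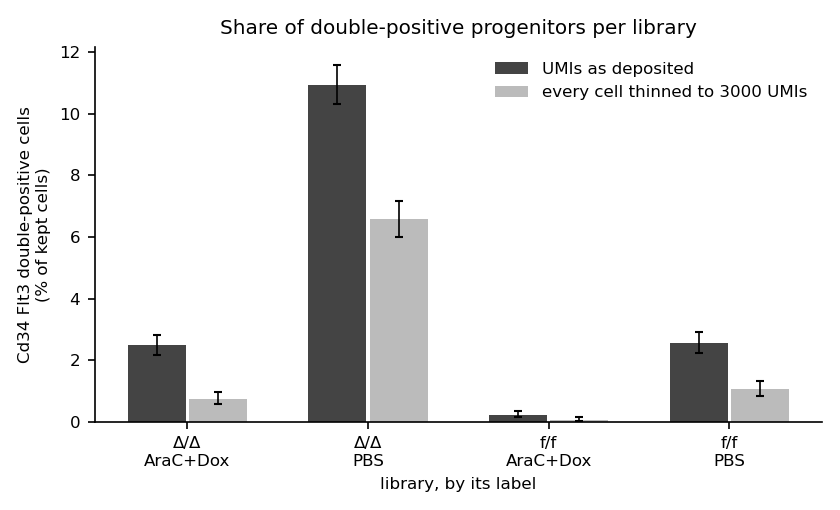
Share of kept MA9 cells that were Cd34 Flt3 double positive (vertical axis, percent) by library label, from the deposited counts and after thinning each cell to 3000 UMIs; error bars are exact 95% binomial intervals, counting error only. The library labelled Δ/Δ PBS stood highest at 10.9% and the library labelled f/f AraC+Dox lowest at 0.226%, and the order was the same after thinning.

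Cells that should lack both transcripts gave a measure of background from free RNA and doublets. Among T cells (at least 3 summed Cd3d, Cd3e and Cd3g UMIs), 2 of 192 passed the rule labelled Δ/Δ AraC+Dox (1.04%, 0.126 to 3.71), 3 of 342 labelled Δ/Δ PBS (0.877%, 0.181 to 2.54), 0 of 41 labelled f/f AraC+Dox, which allows up to 7.32%, and 0 of 64 labelled f/f PBS, which allows up to 4.69%. Among mature neutrophils (at least 1 UMI each of Cxcr2 and Retnlg), 1 of 101 passed labelled Δ/Δ AraC+Dox (0.990%), 5 of 321 labelled Δ/Δ PBS (1.56%, 0.508 to 3.60), 0 of 344 labelled f/f AraC+Dox, which allows up to 0.872%, and 3 of 665 labelled f/f PBS (0.451%, 0.0931 to 1.31). T cells had medians of only 3073.5 to 3809 UMIs and neutrophils 2861 to 4789.5. The share of double positives labelled Δ/Δ PBS lay above both kinds of background cell, and did so at 3000 UMIs too (T cells 0.562%, 0.0142 to 3.09; neutrophils 0.671%, 0.0170 to 3.68). The share labelled f/f PBS lay above its neutrophils as deposited, but at 3000 UMIs its 1.05% lay within their interval (1 of 392, 0.255%, 0.00646 to 1.41). The share labelled Δ/Δ AraC+Dox lay within the intervals of its T cells and of its neutrophils (0.0251 to 5.39). The share labelled f/f AraC+Dox lay under the limit that its 344 neutrophils could show. By their number, neither the 22 cells labelled f/f AraC+Dox nor the 234 labelled Δ/Δ AraC+Dox can be told apart from background. The 219 labelled f/f PBS stood apart only from neutrophils as deposited. Their share of 2.54% lay under the 4.69% that the 64 T cells allow. All 4 libraries enter the paired tests as full pairs. Results that rest on the 22 cells are named as such.

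Most double positives held few UMIs of the transcripts that chose them. A single Flt3 UMI was found in 146 of 234 cells labelled Δ/Δ AraC+Dox, 408 of 1032 labelled Δ/Δ PBS, 16 of 22 labelled f/f AraC+Dox and 140 of 219 labelled f/f PBS. At 2 UMIs or more of both genes, 45, 401, 4 and 46 cells were left in the same order of libraries. The pooled level of Cd34 (chr1:194938819-194961279, plus strand) was 168 CPM labelled Δ/Δ AraC+Dox, 247 CPM labelled Δ/Δ PBS, 260 CPM labelled f/f AraC+Dox and 252 CPM labelled f/f PBS. Flt3 (chr5:147330741-147400489, minus strand) stood at 132, 218, 122 and 184 CPM in the same order. These levels follow from the rule. The stem-gene sum removed 26 of 260 double positives labelled Δ/Δ AraC+Dox, 662 of 1694 labelled Δ/Δ PBS, 4 of 26 labelled f/f AraC+Dox and 64 of 283 labelled f/f PBS.

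Just inside and just outside the thresholds the cells differed by degree. In the library labelled Δ/Δ PBS, cells with 2 or more Flt3 UMIs had 454 CPM of Sox4, cells with 1 had 216 CPM and Cd34-positive cells with none had 115 CPM. The same order of Sox4 levels held labelled Δ/Δ AraC+Dox (285, 202 and 90.2 CPM), f/f AraC+Dox (238, 162 and 34.7 CPM) and f/f PBS (167, 111 and 45.3 CPM). The values labelled f/f AraC+Dox come from 6, 16 and 176 cells. There 1 of 22 double positives held 18 of their 48 Sox4 UMIs, so the order between the first 2 values rests on few cells. At the stem-gene sum the libraries went different ways. Cells with a sum of 2, just inside, and of 3, just outside, had 401 and 410 CPM of Sox4 labelled Δ/Δ PBS (197 and 130 cells), 401 and 224 CPM labelled Δ/Δ AraC+Dox (11 and 9 cells), 83.0 and 0 CPM labelled f/f AraC+Dox (3 cells and 1), and 196 and 341 CPM labelled f/f PBS (27 and 15 cells). Flt3-positive cells without Cd34 were unlike the double positives in Cd74, the invariant chain of MHC class II: double positives with 1 Cd34 UMI had 105, 107, 0 and 8.10 CPM, and cells with none had 608, 266, 670 and 834 CPM, in the order Δ/Δ AraC+Dox, Δ/Δ PBS, then f/f AraC+Dox, then f/f PBS. These are descriptions of the chosen cells.

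Other populations of the same library served for comparison. The first was every other kept cell (35734 cells), which includes maturing neutrophils and lymphocytes. The second was the Gata2-Hlf stem-like cells, Cd34-positive with a stem-gene sum of 3 or more (1534 cells: 118 labelled Δ/Δ AraC+Dox, 1192 labelled Δ/Δ PBS, 25 labelled f/f AraC+Dox and 199 labelled f/f PBS). The third was the Cd34-positive Flt3-negative cells below that sum (2517 cells: 656, 1060, 176 and 625 in the same order). The 7 genes of the rule were left out of all tests.

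Sox4, a transcription factor of early progenitors and a frequent partner in myeloid leukaemia, was the marker by which these cells are called progenitors. Sox4 (chr13:28948919-28953713, minus strand) stood at 232 CPM in double positives labelled Δ/Δ AraC+Dox, 360 CPM labelled Δ/Δ PBS, 184 CPM labelled f/f AraC+Dox and 131 CPM labelled f/f PBS. Other cells had 55.8, 138, 7.68 and 20.4 CPM in the same order. At least 1 Sox4 UMI was present in 169 of 234 double positives (72.2%) labelled Δ/Δ AraC+Dox and 785 of 1032 (76.1%) labelled Δ/Δ PBS, but in 8 of 22 (36.4%) labelled f/f AraC+Dox and 94 of 219 (42.9%) labelled f/f PBS. Sox4 was thus higher in double positives than in other cells of each library, by 4.91-fold (log2 2.30, SE 0.30, adjusted p = 2.9e-04, edgeR's quasi-likelihood test). Against Cd34-positive Flt3-negative cells, at 90.2, 115, 34.7 and 45.3 CPM, it was 2.95-fold higher (log2 1.56, SE 0.11, adjusted p = 4.2e-07, same test). Against stem-like cells, at 198, 337, 276 and 180 CPM, it did not pass (log2 -0.01, SE 0.11, adjusted p = 0.985) and was higher in 2 libraries and lower in 2. The marker was shared with the stem-like cells, so Sox4 did not set the double positives apart from them.

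**Figure D2:**
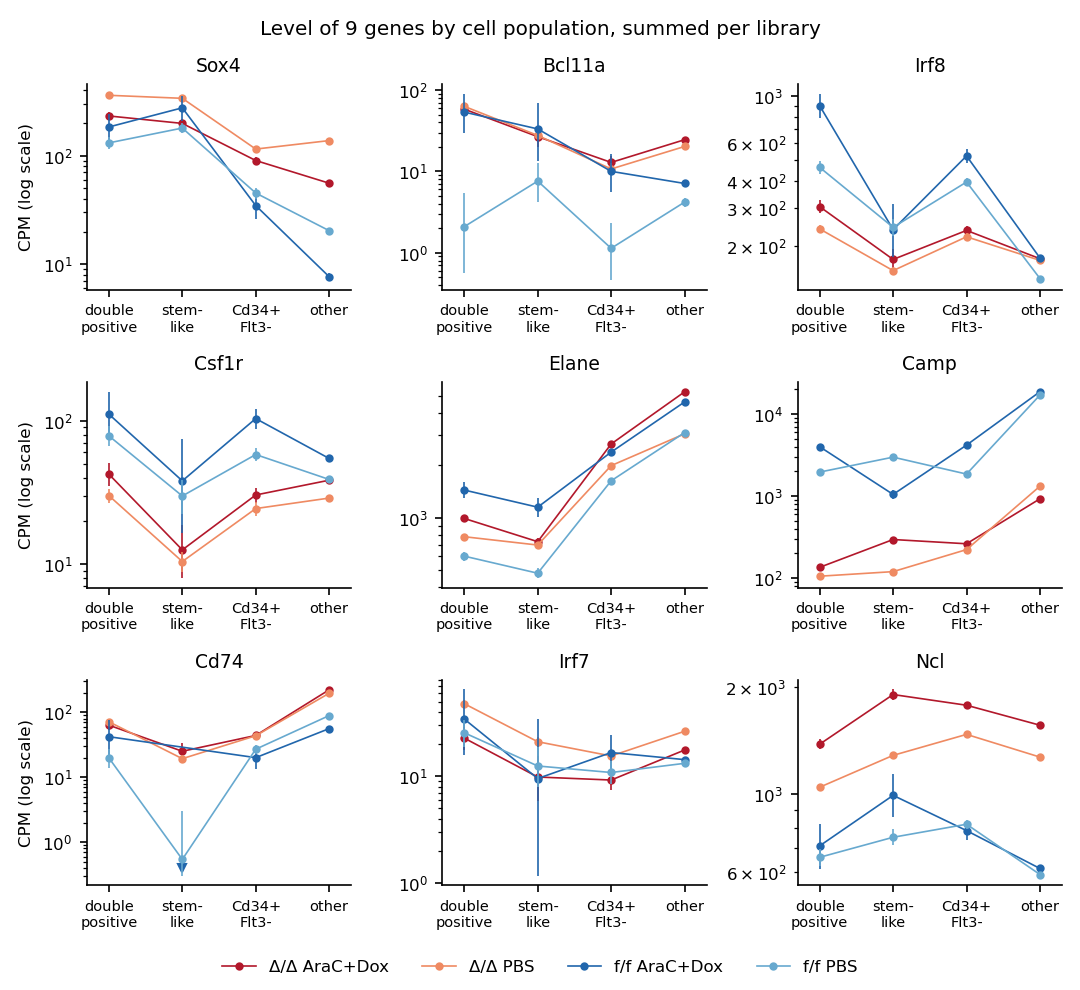
Level of 9 genes (vertical axis, CPM of the pooled cells, logarithmic) in double positives, stem-like cells, Cd34-positive Flt3-negative cells and other kept cells (horizontal axis), with 1 line for each library label; a triangle at the lower edge stands for 0 UMIs. Sox4 was about level between double positives and stem-like cells, Csf1r and Cd74 were lower in stem-like cells in each library, and Camp differed more between libraries than between the first 3 populations.

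The double positives stood apart from the other marrow cells by progenitor genes on the high side and by neutrophil granule genes on the low side. Of 12700 genes, 742 were higher (5.84% called) and 1082 lower (8.52% called) at an adjusted p under 0.05 in edgeR's quasi-likelihood test. Of 28 measured genes of multipotent and lymphoid-primed progenitors, 12 were higher and 3 lower, with a median log2 fold change of 0.54 against -0.04 over all genes. All 16 genes of secondary granules and neutrophils were lower (median -2.88), and 10 of 16 primary granule genes were lower with none higher (median -0.90). Since the comparison cells include mature neutrophils, this contrast carries differentiation as well as the choice of cells.

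Among the progenitor genes, Tcf4, an E-protein of lymphoid and dendritic development, had 257 CPM labelled Δ/Δ AraC+Dox, 246 CPM labelled Δ/Δ PBS, 237 CPM labelled f/f AraC+Dox and 225 CPM labelled f/f PBS in double positives, against 106, 134, 66.4 and 64.8 CPM in other cells. The double positives differed little among libraries and lay above all 4 comparison values (log2 1.32, SE 0.13, adjusted p = 2.7e-05, edgeR's quasi-likelihood test). Cd93, a surface receptor of early progenitors, was 2.61-fold higher, at 153 to 286 CPM against 41.2 to 119 CPM. Bcl11a, a zinc-finger factor needed for lymphoid and dendritic cells, was 2.57-fold higher (log2 1.36, SE 0.26, adjusted p = 0.0039) but only in 3 libraries. Its levels in double positives were 58.3 CPM labelled Δ/Δ AraC+Dox, 63.1 CPM labelled Δ/Δ PBS, 53.6 CPM labelled f/f AraC+Dox and 2.09 CPM labelled f/f PBS, against 24.5, 20.2, 7.10 and 4.19 CPM in other cells. In the library labelled f/f PBS, Bcl11a was almost absent from double positives, at 4 UMIs in 219 cells.

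Genes that led the ranking by size included several of signalling and chromatin. Auts2, a component of a Polycomb complex, had 30.8, 55.5, 11.5 and 61.6 CPM in double positives, against 8.17, 27.4, 1.85 and 7.83 CPM in other cells, in the order Δ/Δ AraC+Dox, Δ/Δ PBS, then f/f AraC+Dox, then f/f PBS (log2 1.83, SE 0.25, adjusted p = 3.2e-04, edgeR's quasi-likelihood test). Aff3, a paralogue of MLL fusion partners in the elongation machinery, was higher by a log2 of 1.78, and so was Tsc22d1, a leucine-zipper factor, also by 1.78. The chemokine Ccl4 reached 90.5 to 241 CPM against 26.7 to 58.2 CPM, with no overlap between the 4 libraries of each population (log2 1.70, SE 0.13, adjusted p = 3.7e-06). Map7, a microtubule-binding protein, Il12a, a cytokine subunit, and Gpr171, an orphan receptor of haematopoietic progenitors, rose by 1.70, 1.69 and 1.68 on the log2 scale. Tespa1 (1.60), the lectin Clec10a (1.55), Bmyc (1.53) and Il31ra, a cytokine receptor subunit, completed the upper end.

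The lower end was made of genes of mature cells. Pf4, the platelet factor, was at 1.09 CPM labelled Δ/Δ AraC+Dox, 0.631 CPM labelled Δ/Δ PBS and 0 UMIs under both f/f labels in double positives, against 39.5, 10.4, 14.3 and 31.2 CPM in other cells (log2 -4.90). Lactotransferrin, Ltf, a protein of secondary granules, had 0.724 CPM labelled Δ/Δ AraC+Dox, 7.21 CPM labelled Δ/Δ PBS, 0 labelled f/f AraC+Dox and 102.4 CPM labelled f/f PBS, against 40.2, 90.2, 521 and 1113 CPM in other cells (log2 -3.95, SE 0.27, adjusted p = 1.5e-06, edgeR's quasi-likelihood test). Of the 196 Ltf UMIs in double positives labelled f/f PBS, 101 lay in 1 of 219 cells, so that level rests largely on 1 cell. Fpr2, Chil1, Mmp9, Wfdc21, Retnlg, Plbd1 and Ly6g, all of maturing neutrophils or phagocytes, and Mogat2, a lipid enzyme, had log2 changes between -3.61 for Fpr2 and -3.14 for Mogat2.

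Of the primary granule genes, Elane, the neutrophil elastase made by promyelocytes, had 991 CPM labelled Δ/Δ AraC+Dox, 779 CPM labelled Δ/Δ PBS, 1443 CPM labelled f/f AraC+Dox and 602 CPM labelled f/f PBS in double positives, against 5286, 3034, 4624 and 3085 CPM in other cells. The populations did not overlap (log2 -2.20, SE 0.13, adjusted p = 3.9e-07, edgeR's quasi-likelihood test). Fcnb, a ficolin of granules (log2 -2.77), and the granulocyte factors Cebpe (-2.25) and Gfi1 (-1.69) were lower with it. Monocyte genes were mixed, with 6 of 16 higher and 4 lower. Irf8, the factor that directs progenitors to monocytes and dendritic cells, was 304, 239, 900 and 464 CPM in double positives, against 174, 171, 175 and 140 CPM in other cells, in the order Δ/Δ AraC+Dox, Δ/Δ PBS, then f/f AraC+Dox, then f/f PBS (log2 1.22, SE 0.21, adjusted p = 0.0017). Ly86, a partner of a Toll-like receptor homologue, was higher as well (log2 1.13), whereas Fn1 (fibronectin, -2.79) and Cd14 (a receptor of mature monocytes, -1.28) were lower.

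Of 14 measured MHC class II and dendritic genes, 2 were higher and 6 lower, with a median (-0.07) near that of all genes. Cd74 stood at 63.3, 71.5, 42.1 and 19.9 CPM in double positives, against 222, 197, 56.1 and 89.0 CPM in other cells (log2 -1.70), and H2-Eb1, H2-Aa and H2-Ab1 fell by 2.62, 1.95 and 1.79 on the log2 scale. H2-DMa, which loads peptide onto class II molecules, went the other way (log2 1.12). Genes of MHC class I presentation were higher in 9 of 18 and lower in none (median 0.39), led by the transporter Tap2 (log2 0.72) and the immunoproteasome subunit Psmb8 (0.64). Glycolysis genes were lower in 12 of 22 and higher in none (median -0.47). The glucose transporter Slc2a3 fell by 2.01, the lactate transporter Slc16a3 by 1.33, Gpi1 by 0.76 and enolase Eno1 by 0.70 on the log2 scale. Genes of T and NK cells were lower in 9 of 10, of megakaryocytes in 6 of 7 and of stroma in 5 of 6. S phase and G2/M genes were lower in 2 of 22 and 2 of 23, with none higher, and nuclear genes of oxidative phosphorylation in 2 of 36 with none higher.

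Among MLL and HOX leukaemia genes, 5 of 24 were higher. Bcl2, which blocks cell death, was 2.48-fold higher, at 110 to 161 CPM against 20.7 to 86.0 CPM. Pbx3, a HOX cofactor, was 1.48-fold higher but depended on the library for its level: 7.60 CPM labelled Δ/Δ AraC+Dox, 117 CPM labelled Δ/Δ PBS, 15.3 CPM labelled f/f AraC+Dox and 88.8 CPM labelled f/f PBS in double positives. Counts of calls without the library labelled Δ/Δ PBS were 668 higher and 954 lower, and without the library labelled f/f AraC+Dox 678 higher and 904 lower.

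Next to the stem-like cells, the double positives had higher pooled levels of monocyte genes and of the few MHC class II and dendritic genes measured. Of 8997 genes, 601 were higher (6.68% called) and 283 lower (3.15% called) in edgeR's quasi-likelihood test with Benjamini-Hochberg adjustment. Of 14 measured monocyte genes 9 were higher and none lower (median log2 fold change 0.59, against 0.00 over all genes). MHC class I genes showed 1 higher and 1 lower of 18 (median 0.09). Of 17 MHC class II and dendritic genes only 7 were measured, and 6 of them were higher (median 0.62). The largest changes among them at 20 CPM or more were in Cd74, Id2, H2-DMa and Clec10a. Of 10 plasmacytoid dendritic genes only 4 were measured, Irf7, Ly6c2, Runx2 and Bst2, and all were higher. Irf7 and Bst2 are also on the interferon list. Stem-like cells were set by Gata2, Cpa3 and the other rule genes, so genes that travel with those follow from the choice of cells, and this holds for the lower end of the ranking above all.

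Csf1r, the receptor for macrophage colony-stimulating factor, stood at 42.4 CPM labelled Δ/Δ AraC+Dox, 30.0 CPM labelled Δ/Δ PBS, 111 CPM labelled f/f AraC+Dox and 78.4 CPM labelled f/f PBS in double positives, against 12.6, 10.4, 38.0 and 29.8 CPM in stem-like cells. Within each library it was about 2.99-fold higher (log2 1.58, SE 0.12, adjusted p = 8.7e-08, edgeR's quasi-likelihood test). Mpeg1, a pore-forming protein of macrophages, had 144, 143, 188 and 176 CPM against 43.1, 52.7, 90.3 and 61.3 CPM (log2 1.56). Ctss, the cathepsin that trims class II chains, had 195, 183, 176 and 238 CPM against 62.8, 67.9, 119 and 78.1 CPM (log2 1.53). Each of these genes was above all 4 stem-like values in all 4 libraries of double positives except Csf1r, whose levels also differed between libraries. The chemokine receptor Ccr2 followed (log2 1.23).

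Lgmn, the lysosomal protease legumain, led the ranking with 88.7, 65.6, 23 and 30.8 CPM in double positives, against 10.9, 16.1, 4.75 and 4.88 CPM in stem-like cells (log2 2.31, SE 0.15, adjusted p = 9.5e-09, edgeR's quasi-likelihood test). Cd74 came next, at 63.3, 71.5, 42.1 and 19.9 CPM against 25.1, 19.3, 0 and 0.542 CPM (log2 1.91, SE 0.18, adjusted p = 1.0e-06). Labelled f/f PBS, 29 of 38 Cd74 UMIs lay in 1 of 219 double positives, and labelled f/f AraC+Dox all 11 lay in 2 of 22, so these levels rest on few cells. Under the Δ/Δ labels Cd74 was found in 31 of 234 double positives after AraC+Dox and 120 of 1032 after PBS. Cd74 lay between a low level in stem-like cells and a high one in the marrow as a whole. Dusp22, a phosphatase (log2 1.78), Kctd14 (1.71) and Olfm1, a secreted olfactomedin (1.63), were also higher. At the lower end, the eosinophil and basophil granule genes Prg2 and Prg3 changed by -4.54 and -2.34, the neuropeptide Npy by -4.26, Nrgn by -4.21, the cation transporter Slc22a3 by -2.83, Serpine2 by -2.48, the syntaxin Stx3 by -2.33 and the integrin chain Itgb3 by -2.17 on the log2 scale. Mcpt8 and Hdc, the 2 mast cell and basophil genes measured, were both lower.

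Progenitor genes split against stem-like cells, with 7 of 25 higher and 5 lower (median -0.01). Kit, the stem cell factor receptor, was 8.33 CPM labelled Δ/Δ AraC+Dox, 31.5 CPM labelled Δ/Δ PBS, 26.8 CPM labelled f/f AraC+Dox and 39.7 CPM labelled f/f PBS in double positives, against 41.5, 62.5, 76.1 and 85.2 CPM in stem-like cells (log2 -1.15, SE 0.14, adjusted p = 2.5e-05, edgeR's quasi-likelihood test). It was lower in all 4 libraries, as were Spns2, a sphingosine phosphate exporter (-1.42), and Msi2, an RNA-binding protein of stem cells (-1.10). Bcl11a was higher (log2 1.10), again only in 3 libraries. Interferon response genes were higher in 8 of 15 and lower in none (median 0.44), with Ifi27l2a (log2 1.25) and Irf7, the factor that amplifies type I interferon (1.23), in front. That count was 2 of 13 without the library labelled Δ/Δ PBS and 3 of 14 against stem-like cells matched for depth. Matching for depth left 44 of 118 stem-like cells labelled Δ/Δ AraC+Dox and 850 of 1192 labelled Δ/Δ PBS. It left 4 of 25 labelled f/f AraC+Dox and 80 of 199 labelled f/f PBS. Equal depth and the loss of cells cannot be told apart in these counts.

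Of G2/M genes, 9 of 23 were lower in double positives than in stem-like cells, among them Ube2c (log2 -0.53) and Ccnb1 (-0.51), and of MYC and ribosome biogenesis genes 7 of 24 were lower, among them Odc1 (-0.51) and Mybbp1a (-0.43). With depth-matched stem-like cells, only 4 of them labelled f/f AraC+Dox, 0 of 23 and 2 of 24 were called. Without the library labelled f/f PBS 1 of 23 G2/M genes was called. The monocyte count was 8 to 12, with none lower, in each of the fits with the library block. Counts over all genes without the library labelled Δ/Δ PBS were 279 higher and 165 lower, and without the library labelled f/f AraC+Dox 691 higher and 373 lower. Leaving out that labelled Δ/Δ AraC+Dox gave 382 and 175, and leaving out that labelled f/f PBS gave 413 and 178.

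Against Cd34-positive cells in which no Flt3 was found, the double positives differed in granule, growth and interferon genes. Of 10135 genes, 1002 were higher (9.89% called) and 1217 lower (12% called) in double positives in edgeR's quasi-likelihood test with Benjamini-Hochberg adjustment. Primary granule genes were lower in 13 of 16 and higher in none (median log2 fold change -0.68, against -0.02 over all genes), and this count was 12 or 13 in each fit with the library block. Progenitor genes were higher in 13 of 25 and lower in 2 (median 0.29). Some Flt3-negative cells hold Flt3 RNA that was not captured, and the double positives had fewer UMIs per cell (medians of 9908 against 12527 labelled Δ/Δ AraC+Dox, 9436 against 10826 labelled Δ/Δ PBS and 7291 against 8813 labelled f/f PBS) except where labelled f/f AraC+Dox (9709 against 7240). Counts from depth-matched cells are given where they differ. Matching left 394 Flt3-negative cells labelled Δ/Δ AraC+Dox, 540 labelled Δ/Δ PBS, 62 labelled f/f AraC+Dox and 258 labelled f/f PBS.

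Elane stood at 991, 779, 1443 and 602 CPM in double positives, against 2653, 1992, 2382 and 1630 CPM in Flt3-negative cells, in the order Δ/Δ AraC+Dox, Δ/Δ PBS, then f/f AraC+Dox, then f/f PBS (log2 -1.27, SE 0.10, adjusted p = 3.5e-06, edgeR's quasi-likelihood test). Cebpe, which drives secondary granule genes, had 30.4, 47.9, 45.9 and 109 CPM against 76.7, 140, 176 and 177 CPM (log2 -1.28). Both were lower in all 4 libraries. Nkg7 (-0.96), Ms4a3 (-0.93), a marker of granulocyte and monocyte progenitors, and the cathepsin Ctsg (-0.78) were lower too. Myeloperoxidase, Mpo, was lower by a log2 of 0.59 over the pairs but not in the library labelled f/f AraC+Dox, where it stood at 2844 CPM in double positives and 2767 CPM in Flt3-negative cells.

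On the high side, Bcl11a was 4.96-fold higher than in Flt3-negative cells, at 58.3, 63.1, 53.6 and 2.09 CPM against 12.9, 10.7, 10.0 and 1.13 CPM (log2 2.31, SE 0.14, adjusted p = 1.4e-07, edgeR's quasi-likelihood test). It was higher in 4 of 4 libraries here, from 4 UMIs in the double positives labelled f/f PBS. Lgmn (log2 1.84), Auts2 (1.62), Sox4 (1.56), Irf7 (1.42) and the kinase Camk1d (1.38) made up the rest of the upper end. Satb1, a chromatin organiser of lymphoid progenitors (1.27), and Cd27, a receptor of the same cells (1.09), were also higher. The lower end held Prg3 (-1.85), the sulphotransferase Chst13 (-1.50), the chaperone Fkbp11 (-1.20) and Impdh1, an enzyme of guanine nucleotide synthesis (-1.19).

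Interferon response genes were higher in 13 of 19 and lower in none (median log2 fold change 0.71). Irf7 had 22.8 CPM labelled Δ/Δ AraC+Dox, 48.0 CPM labelled Δ/Δ PBS, 34.4 CPM labelled f/f AraC+Dox and 25.6 CPM labelled f/f PBS in double positives, against 9.20, 15.5, 16.7 and 10.8 CPM in Flt3-negative cells (log2 1.42, SE 0.12, adjusted p = 6.5e-06, edgeR's quasi-likelihood test). Each double-positive value lay above all 4 of the others. Ifi27l2a (0.94), Xaf1 (0.83) and Stat2 (0.55) followed. The count was 5 of 14 without the library labelled Δ/Δ PBS and 7 of 15 with depth-matched cells.

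Growth genes were lower in 3 lists, while G2/M genes were not. Of 24 genes of MYC and ribosome biogenesis 22 were lower and none higher (median -0.44), led by the spermidine synthase Srm (log2 -0.71) and the ornithine decarboxylase Odc1 (-0.69). S phase genes were lower in 14 of 22, among them Ung (-0.58) and Rrm2 (-0.56), and nuclear genes of oxidative phosphorylation in 15 of 36, with none higher in either list. Ncl, the nucleolin of the nucleolus, stood at 1379 CPM labelled Δ/Δ AraC+Dox, 1042 CPM labelled Δ/Δ PBS, 712 CPM labelled f/f AraC+Dox and 661 CPM labelled f/f PBS in double positives, against 1777, 1470, 786 and 819 CPM in Flt3-negative cells (log2 -0.37, SE 0.08, adjusted p = 0.0042, edgeR's quasi-likelihood test). It was chosen after its values were seen. These 3 counts rested on the library with most double positives: without the one labelled Δ/Δ PBS they were 4 of 24, 1 of 22 and 0 of 36, and with depth-matched cells 17 of 24, 10 of 22 and 10 of 36. Without the library labelled Δ/Δ AraC+Dox they were 14 of 24, 16 of 22 and 4 of 36. Of 23 G2/M genes, 2 were higher and 1 lower than in Flt3-negative cells (median 0.03).

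Glycolysis genes were lower than in Flt3-negative cells in 14 of 22, with none higher (median -0.33), and in 1 of 20 without the library labelled Δ/Δ PBS. Pfkp (chr13:6579768-6648777, minus strand) stood at 56.1 CPM labelled Δ/Δ AraC+Dox, 34.8 CPM labelled Δ/Δ PBS, 49.8 CPM labelled f/f AraC+Dox and 35.0 CPM labelled f/f PBS in double positives, against 70.5, 54.8, 66.1 and 45.0 CPM in Flt3-negative cells. It was lower in 4 of 4 libraries (log2 -0.52, SE 0.10, adjusted p = 0.0016, edgeR's quasi-likelihood test), and without the library labelled Δ/Δ PBS the log2 fold change was -0.36 with an adjusted p of 0.105. Against stem-like cells (67.1, 41.2, 47.5 and 42.3 CPM) Pfkp did not pass (log2 -0.19, adjusted p = 0.285), nor against other cells (63.3, 46.5, 38.9 and 32 CPM; log2 -0.21, adjusted p = 0.266). Slc16a3 (-0.69), Hk2, a hexokinase (-0.53), and Eno1 (-0.48) were lower than in Flt3-negative cells with it. Counts over all genes were 342 higher and 215 lower without the library labelled Δ/Δ PBS, and 561 and 560 without that labelled Δ/Δ AraC+Dox. They were 1242 and 1206 without that labelled f/f AraC+Dox, and 951 and 791 without that labelled f/f PBS.

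**Figure D3:**
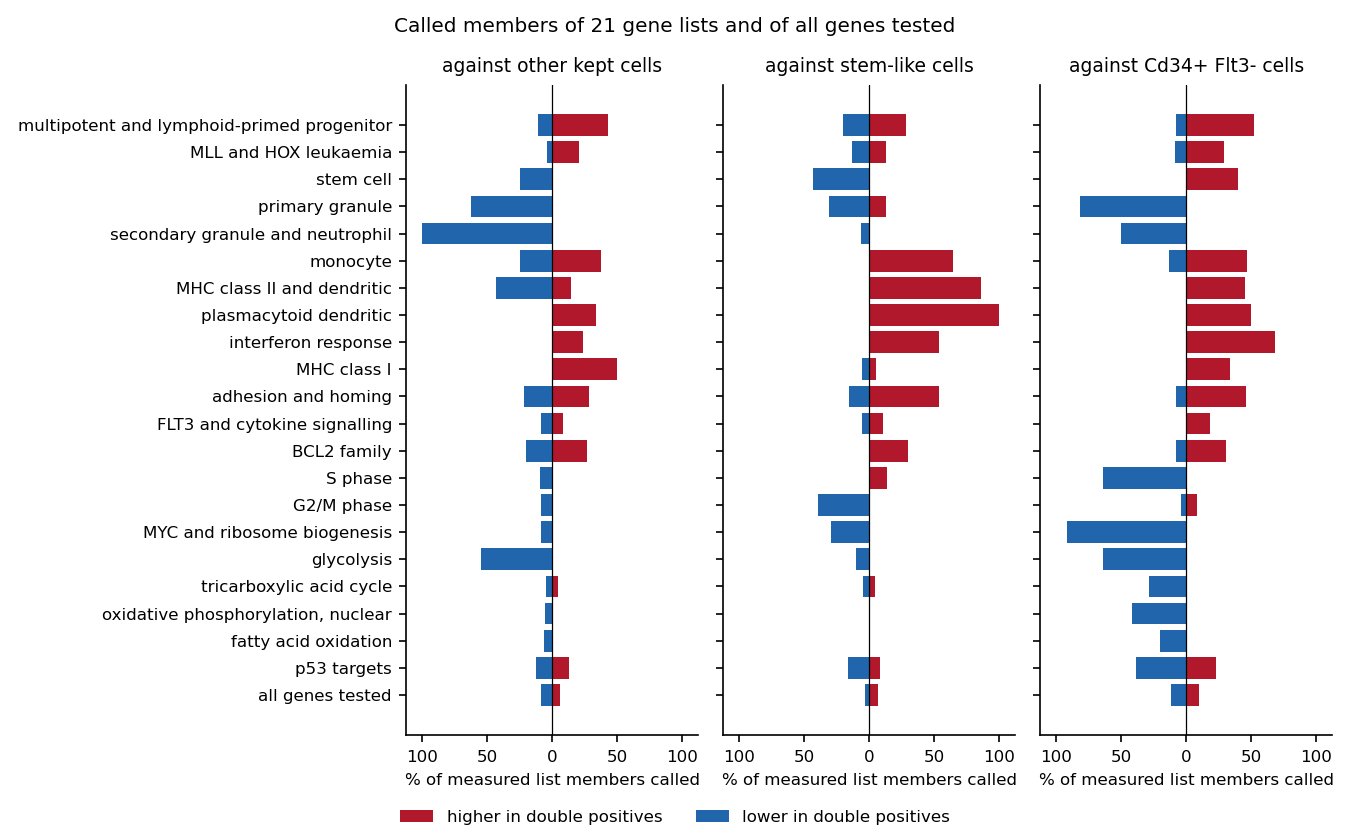
Share of measured genes of each list (horizontal axis, percent) called higher or lower in double positives at an adjusted p under 0.05, in 3 panels for the comparison with other kept cells, stem-like cells and Cd34-positive Flt3-negative cells; the row of all genes gives the background. Secondary granule genes were lower in 16 of 16 against other cells, monocyte genes higher in 9 of 14 against stem-like cells, and ribosome biogenesis genes lower in 22 of 24 against Flt3-negative cells.

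The double positives were not uniform. After thinning to 3000 UMIs, 10 or more summed UMIs of Mpo, Elane, Prtn3 and Ctsg were found in 57.6% of those labelled Δ/Δ AraC+Dox (132 of 229, interval 51.0 to 64.1), 34.4% labelled Δ/Δ PBS (342 of 993, 31.5 to 37.5), 57.1% labelled f/f AraC+Dox (12 of 21, 34 to 78.2) and 35.8% labelled f/f PBS (76 of 212, 29.4 to 42.7). Cd34-positive Flt3-negative cells passed this granule gate at 80.6, 68.1, 60.1 and 59.6%, and stem-like cells at 68.7, 34.1, 60.0 and 31.0%, in the same order. The double positives lay below Flt3-negative cells in each library, with overlapping intervals only labelled f/f AraC+Dox, and near the stem-like cells. Before thinning, the granule gate was passed by 187 of 234, 529 of 1032, 15 of 22 and 126 of 219 double positives.

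Monocyte genes (3 or more summed UMIs of Csf1r, F13a1, Ly6c2 and Fn1) were found after thinning in 64.6% of double positives labelled Δ/Δ AraC+Dox, 65.9% labelled Δ/Δ PBS, 95.2% labelled f/f AraC+Dox (20 of 21) and 82.1% labelled f/f PBS. Stem-like cells passed at 44.3, 43.8, 48.0 and 62.6% and Flt3-negative cells at 68.1, 73.4, 74.5 and 85.6%. Double positives exceeded stem-like cells in each library, but exceeded Flt3-negative cells only where labelled f/f AraC+Dox (21 cells). In the paired test against Flt3-negative cells 7 of 15 monocyte genes were higher and 2 lower (median log2 fold change 0.22). Granule and monocyte genes met in the same cells: before thinning both gates were passed by 181 of 234, 518 of 1032, 15 of 22 and 123 of 219 double positives. The gate on MHC class II genes (10 or more UMIs) was passed after thinning by 1.31% labelled Δ/Δ AraC+Dox, 1.51% labelled Δ/Δ PBS, 0 of 21 labelled f/f AraC+Dox and 0 of 212 labelled f/f PBS. In the same order, stem-like cells passed it at 0.870, 0.514, 0 and 0% and Flt3-negative cells at 0.782, 0.635, 0.654 and 0.508%. Other kept cells passed it at 3.60, 2.71, 0.743 and 1.16%, above the double positives in each library. The gate on early lymphoid and B-lineage genes (3 or more UMIs) was passed by 0 of 229, 1 of 993, 1 of 21 and 0 of 212 cells. Other kept cells passed the lymphoid gate at 0.306, 0.678, 0.224 and 0.196% after thinning, so few cells of any kind passed it at this depth. Before thinning 0.855, 1.65, 9.09 (2 of 22) and 0% of double positives passed it. Other kept cells then passed at 3.95, 5.30, 0.730 and 0.655%, so only labelled f/f AraC+Dox was the share higher in double positives. None of these 4 gates was passed, before thinning, by 5 of 234, 99 of 1032, 0 of 22 and 10 of 219.

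G2/M genes at 5 or more summed UMIs after thinning were found in 76.0% of double positives labelled Δ/Δ AraC+Dox, 55.4% labelled Δ/Δ PBS, 42.9% labelled f/f AraC+Dox and 35.8% labelled f/f PBS. The same shares were 84.3, 55.1, 52.0 and 37.4% in stem-like cells and 80.4, 67.9, 56.9 and 53.3% in Flt3-negative cells. Double positives labelled Δ/Δ PBS and f/f PBS lay below their Flt3-negative cells with no overlap of intervals, and no library separated them from stem-like cells. In the paired test 2 of 23 G2/M genes were higher and 1 lower than in Flt3-negative cells (median log2 fold change 0.03).

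**Figure D4:**
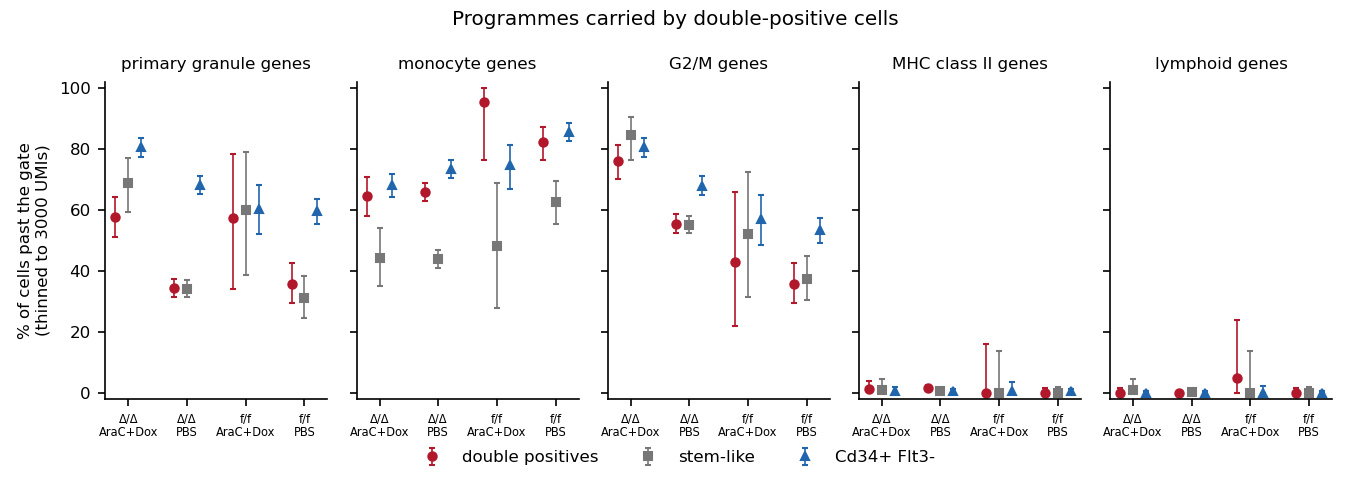
Share of cells past each of 5 gene gates after thinning to 3000 UMIs (vertical axis, percent, exact 95% intervals) by library label, for double positives, stem-like cells and Cd34-positive Flt3-negative cells. Double positives lay below Flt3-negative cells for primary granule genes in each library. For monocyte genes they lay above stem-like cells in each library, and below Flt3-negative cells except labelled f/f AraC+Dox. The MHC class II and lymphoid gates were passed by few cells of any kind.

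Between libraries the double positives were compared gene by gene at 50 CPM or more in either, with 2-fold as the size that was counted. For the library labelled Δ/Δ PBS over that labelled f/f PBS, with 1032 and 219 cells, 36 of 3269 genes were at least 2-fold higher (1.1%) and 73 lower (2.23%). Bcl11a stood at 63.1 CPM labelled Δ/Δ PBS (288 of 1032 cells with a UMI) and 2.09 CPM labelled f/f PBS (3 of 219), a log2 ratio of 4.92 (interval 3.55 to 6.80), and the same ratio in other kept cells was 2.27. Ly6k, a surface protein of the Ly6 family, had a log2 ratio of 3.97 in double positives and 4.28 in other cells. Pim1, the kinase gene induced by STAT5 downstream of cytokine receptors, had 289 CPM labelled Δ/Δ PBS and 38.1 CPM labelled f/f PBS (log2 ratio 2.92, 2.59 to 3.28), with 2.56 in other cells. Ly6k and Pim1 thus differed between the libraries as a whole, whereas the ratio of Bcl11a was larger in the double positives.

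The cell cycle inhibitors Cdkn2c (72.5 CPM labelled Δ/Δ PBS, 12 CPM labelled f/f PBS, log2 ratio 2.59) and Cdkn1a (92.8 and 20.9 CPM, 2.15) and the interferon gene Ifi27l2a (189 and 32.9 CPM, 2.52) were the other genes named on the high side. Sox4 had a log2 ratio of 1.46 (1.27 to 1.65), against 2.76 in other cells. On the low side stood genes of secondary granules. Camp, the cathelicidin, had 105 CPM labelled Δ/Δ PBS and 1958 CPM labelled f/f PBS (log2 ratio -4.22), with -3.69 in other cells. Ltf (-3.83), Ngp (-3.27) and S100a9 (-2.61) had ratios of -3.63, -3.47 and -2.76 in other cells, so the granule genes differed by similar sizes inside and outside the double positives. At 2 UMIs or more of both rule transcripts the Ltf ratio was 1.65. Whether granule RNA in these cells was their own or free RNA of the marrow was not tested.

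Vcam1 (2.52 CPM labelled Δ/Δ PBS, 63.7 CPM labelled f/f PBS, log2 ratio -4.66) and Apoe (12.5 and 119 CPM, -3.25) rested largely on 1 cell each. Labelled f/f PBS, 1 of 219 double positives held 109 of 122 Vcam1 UMIs, and 1 held 147 of 228 Apoe UMIs. The only double positive there with 3 or more C1q UMIs, a cell of 12337 UMIs, held 370 of 466 UMIs. That sum covers C1qa, C1qb, C1qc, Vcam1 and Apoe, not the whole macrophage list. Without the cell richest in the gene in each library the log2 ratios were -1.66 for Vcam1 and -1.94 for Apoe. All 8 measured macrophage genes were 1.5-fold lower or more (median -2.91, with 1.37 in other cells). Without cells of 3 or more C1q UMIs only 2 were measured, and both were still 1.5-fold lower or more (median -1.54).

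By list, with members counted at 10 CPM or more and 1.5-fold, the background for this pair was 770 higher and 711 lower of 8026 genes (median 0.05). Interferon response genes were higher labelled Δ/Δ PBS in 8 of 16 and lower in none (median 0.75, and 1.08 in other cells). S phase genes were higher in 10 of 22 (median 0.57), G2/M genes in 7 of 23 (0.44), ribosome biogenesis genes in 8 of 23 (0.47) and progenitor genes in 7 of 25 (0.23), with none lower in any of these lists. Monocyte genes were lower in 6 of 13 and higher in none (median -0.51), while the same list had a median of 0.28 in other cells. Irf8 was 239 CPM labelled Δ/Δ PBS and 464 CPM labelled f/f PBS in double positives (log2 ratio -0.95, -1.06 to -0.84), with 0.28 in other cells, and Csf1r was 30.0 and 78.4 CPM (-1.38), with -0.43. Irf8 thus had ratios of opposite sign inside and outside the double positives, and Csf1r was lower in both; the difference was not tested. Secondary granule genes were lower in 12 of 15 (median -2.25). MLL and HOX genes split evenly, with 5 of 23 higher and 5 lower: Hoxa5 and Hoxa10 had log2 ratios of -0.95 and -0.88. Ptpn6 (-0.21, -0.36 to -0.06) and Pfkp (-0.01, -0.39 to 0.39) were close to equal.

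For AraC+Dox over PBS under the Δ/Δ label, with 234 and 1032 double positives, 38 of 3222 genes were at least 2-fold higher (1.18%) and 43 lower (1.33%). Gdf3, a ligand of the transforming growth factor beta family, had 57.2 CPM labelled Δ/Δ AraC+Dox (95 of 234 cells with a UMI) and 3.15 CPM labelled Δ/Δ PBS (22 of 1032), a log2 ratio of 4.18 (3.64 to 4.75), with 2.29 in other cells. Ifitm1, an interferon-induced membrane protein also found in progenitors, had 230 and 18.6 CPM (log2 ratio 3.63), with 1.42 in other cells. The histone gene Hist1h2ap had 451 and 52.5 CPM (3.10), with 3.44 in other cells. Gdf3 and Ifitm1 thus had larger ratios in double positives than outside them, and Hist1h2ap did not. Fabp5, a fatty acid carrier (2.26), Stfa1, a stefin (2.01), and Igfbp4, a binding protein of insulin-like growth factors (1.85), followed. All Stfa1 UMIs labelled Δ/Δ AraC+Dox lay in 8 of 234 cells, 1 of which held 50%, and other cells had 49.5 CPM labelled Δ/Δ AraC+Dox and 396 CPM labelled Δ/Δ PBS.

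Genes lower labelled Δ/Δ AraC+Dox were Adgrl4, an adhesion receptor (4.34 CPM labelled Δ/Δ AraC+Dox and 97.9 CPM labelled Δ/Δ PBS, log2 ratio -4.49), Pbx3 (7.60 and 117 CPM, -3.95), Fnbp1l (-2.56), the autophagy gene Wipi1 (-2.37) and the helicase gene Ddx4 (-2.34). Other cells had -3.59 for Adgrl4, -3.26 for Pbx3, -1.99 for Fnbp1l, -1.29 for Wipi1 and -3.23 for Ddx4. These genes thus differed between the 2 libraries outside the double positives as well. Ptpn6 had a log2 ratio of -2.22 (-2.50 to -1.95), with -1.94 in other cells, so this pair differs by the targeted gene under 1 genotype label. Drug and Ptpn6 level cannot be told apart here.

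Interferon response genes were 1.5-fold lower labelled Δ/Δ AraC+Dox in 10 of 16 and higher in none (median -0.71, and -0.35 in other cells), against 507 higher and 623 lower of 7991 genes over all (median -0.02). Ifi27l2a had 88.3 CPM labelled Δ/Δ AraC+Dox and 189 CPM labelled Δ/Δ PBS (log2 ratio -1.10), and Irf7 had 22.8 and 48.0 CPM (-1.07). Glycolysis genes were higher in 4 of 18 and lower in none (median 0.33), with Eno1 at 274 and 84.5 CPM (1.70) and Pfkp at 56.1 and 34.8 CPM (0.69, 0.41 to 0.96). In other cells the ratios were 1.31 for Eno1 and 0.45 for Pfkp. Primary granule genes were higher in 5 of 16 and lower in 1 (median 0.25). Kit had 8.33 CPM labelled Δ/Δ AraC+Dox and 31.5 CPM labelled Δ/Δ PBS (-1.92, -2.59 to -1.31). Hoxa5 (0.99) was higher and Meis1 (-0.72) lower, and Sox4 had a ratio of -0.63 (-0.75 to -0.51), against -1.30 in other cells.

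**Figure D5:**
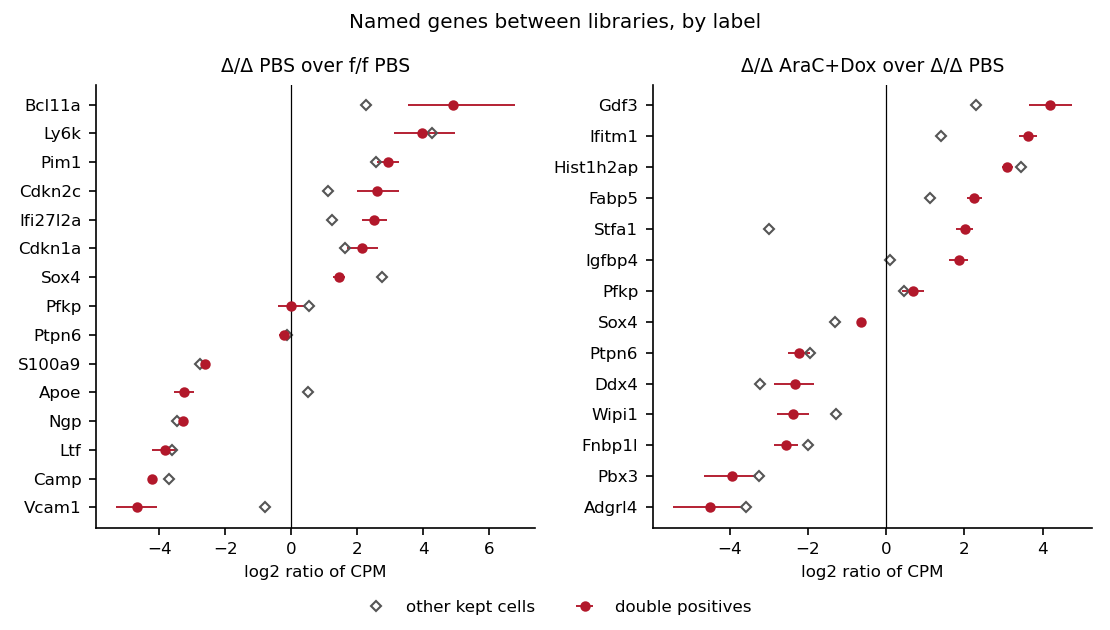
Log2 ratio of pooled CPM in double positives (horizontal axis) for named genes, labelled Δ/Δ PBS over f/f PBS and labelled Δ/Δ AraC+Dox over Δ/Δ PBS; points with bars are ratios with exact 95% intervals, counting error only, and diamonds are the ratios in other kept cells. Granule genes such as Camp lay near their diamonds, while Bcl11a, Vcam1, Apoe, Gdf3 and Stfa1 did not.

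Both ratios that involve the library labelled f/f AraC+Dox rest on 22 cells, and often on 1. For Δ/Δ AraC+Dox over f/f AraC+Dox, 184 of 3293 genes were at least 2-fold higher (5.59%) and 151 lower (4.59%). Hist1h2ap had 451 and 7.66 CPM (log2 ratio 5.88, from 1245 and 2 UMIs), with 4.95 in other cells. Spp1, osteopontin (354 and 1 UMIs, 5.07), Pdcd11 (213 and 1, 4.33), Polr2l (200 and 1, 4.24), Clec10a (207 and 2, 3.29) and Hoxa5 (172 and 3, 2.44) came next, each with an interval over more than 3 log2 units. On the low side, all 18 Ebf1 UMIs and 37 of 37 Stfa2l1 UMIs labelled f/f AraC+Dox lay in 1 cell, and so did 50 of 52 UMIs of Ly6d and 14 of 15 of Cox6a2. Ebf1, a B-lineage factor, was at 0 UMIs labelled Δ/Δ AraC+Dox and at least 63.4-fold lower, with a floor of 3 counts for that library. Ly6d had a log2 ratio of -3.43 with that cell and 0.13 without the richest cell of each library. Camp (-4.89) was found in 14 of 22 cells labelled f/f AraC+Dox, but 1 of them held 519 of 1043 UMIs and 3 held 97.9%, and Olfm4 (-3.36) had 24 of 30 UMIs in 1. The B-lineage signal of Ebf1 and Ly6d in this library thus came almost wholly from 1 cell for each gene.

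Ptpn6 had 42.7 CPM labelled Δ/Δ AraC+Dox and 188 CPM labelled f/f AraC+Dox in double positives (log2 ratio -2.13, -2.63 to -1.62), against -0.39 in other cells. In the library labelled f/f AraC+Dox, 14 of 22 double positives held Ptpn6, at most 8 UMIs each. Over this pair, ribosome biogenesis genes were higher in 15 of 24 and S phase genes in 13 of 22, with none lower, secondary granule genes lower in 9 of 12, and MLL and HOX genes higher in 10 of 21, on a background of 1771 higher and 1544 lower of 8280 genes.

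For AraC+Dox over PBS under the f/f label, 97 of 3287 genes were at least 2-fold higher (2.95%) and 171 lower (5.2%). Ifitm1 had 268 CPM labelled f/f AraC+Dox (70 UMIs) and 1.57 CPM labelled f/f PBS (3 UMIs), a log2 ratio of 7.42 (5.81 to 9.73), with 2.19 in other cells. Bcl11a had 53.6 and 2.09 CPM (14 and 4 UMIs, 4.68) and Tmem176b, a membrane protein of dendritic cells, 95.7 and 4.18 CPM (25 and 8 UMIs, 4.52). Under the Δ/Δ label the same ratio was 3.63 for Ifitm1 and -0.11 for Bcl11a. Ly6d (52 and 0 UMIs), Ebf1 (18 and 0) and Cox6a2 (15 and 2) came almost wholly from 1 cell for each gene. Lower were Spp1 (-4.14), Wfdc21 (-3.98), Apoe (-3.96), Glipr1l1 (-3.81) and Fnbp1l (-2.96), each from 3 or fewer UMIs labelled f/f AraC+Dox, and Ltf, at 0 and 196 UMIs and at least 8.92-fold lower by the floor of 3 counts. Without doublets the Wfdc21 ratio was 0.75. Part of these ratios came from 1 cell labelled f/f PBS for each gene: without the richest cell of each library, and with the floor of 3 counts, they were -2.02 for Ltf, -1.86 for Apoe and -1.29 for Wfdc21. MLL and HOX genes were lower in 9 of 23 and higher in 1, and interferon genes higher in 6 of 12, on a background of 1444 higher and 1693 lower of 8256. Ptpn6 had a log2 ratio of -0.30 (-0.76 to 0.13) in double positives and -1.69 in other cells, and Pfkp 0.51 (-0.47 to 1.38). Sox4 had 0.49 (0.01 to 0.94), and -0.02 without the richest cell of each library.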

How the data were processed

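Droplet single-cell RNA was measured in 6 bone marrow libraries, 4 of them MA9. The authors' deposited files are raw UMI count matrices, made with Cell Ranger 3.0.2 on mm10, per the submitters' processing notes. Counts were used as deposited; coordinates are of GENCODE's GRCm38 annotation. Kept cells had 500 genes or more and no more than 10% mitochondrial UMIs, and doublets were not removed (Scrublet calls, with a threshold of 0.1954 chosen after seeing the data where the automatic one called no cell, served as an alternative). Counts were summed per library and population and tested with edgeR 4.0.16 (quasi-likelihood, TMM, library as block, R 4.3.3) over 8 profiles; DESeq2 1.42.0 was an alternative. Pairs come from the design: both profiles of a pair are cells of the same library. Ratios between libraries use exact conditional intervals (scipy 1.17.1). All intervals cover counting error only, and fewer cells of a type and less RNA per cell cannot be told apart in shares. The tests were also tried on simulated counts.

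Named were the rule genes, Sox4, Ptpn6 and Pfkp; the largest and smallest log2 fold changes among genes at an adjusted p under 0.05 with 1 sign in 4 libraries and at least 20 CPM (12 and 10 against other cells, 8 and 8 against stem-like cells, 6 and 6 against Flt3-negative cells); the 6 largest and 6 smallest ratios between libraries at 50 CPM or more; and up to 4 leading members of each list. Mitochondrial, ribosomal, haemoglobin, sex-linked and antigen receptor genes were not ranked. The members, the 31 gene lists and these rules were chosen with earlier results of these data known. Alternatives were the tool, scaling, filter, block, left-out libraries, stricter or thinned gates, mitochondrial limit, doublets and depth-matched comparison cells. Mpo, Ncl, Ctsg, Hoxa10, Meis1, Samhd1 and Nt5c3, and between libraries Kit, Irf8, Csf1r, Eno1, Irf7 and Pbx3, were chosen after their values were seen. A result for 1 gene is not reported here.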

Additional observations from a re-analysis of the deposited data

Results flagged for a closer look

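The same rule was applied to the 2 libraries of Hoxa9-Meis1 leukaemia (HM, Shp-1 f/f), which enter no comparison above. It found 80 of 4676 kept cells (1.71%, exact interval 1.36 to 2.12) after AraC+Dox and 8 of 2755 (0.290%, 0.125 to 0.571) after PBS. Their mature neutrophils passed at 0.704% (16 of 2273) after AraC+Dox and 0.170% (3 of 1765) after PBS. At 3000 UMIs 11 of 3800 cells (0.289%) after AraC+Dox and 1 of 1895 (0.0528%) after PBS were double positive. At that depth 1 of 2043 (0.0489%) and 0 of 1330 neutrophils passed. As deposited, the double positives had medians of 21230 UMIs after AraC+Dox and 16538.5 after PBS, against 6708 and 4014 in other cells.

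For Wfdc21, a neutrophil gene, and the histone gene Hist1h2ap, the ratio of AraC+Dox over PBS in double positives had opposite signs under the 2 genotype labels. Wfdc21 had a log2 ratio of 2.17 (1.80 to 2.54) under Δ/Δ and -3.98 (-9.30 to -1.48) under f/f. Without doublets the f/f ratio of Wfdc21 was 0.75, so the signs were then no longer opposite, and without the richest cell of each library, with a floor of 3 counts, it was -1.29. Hist1h2ap had 3.10 (2.96 to 3.24) under Δ/Δ and -2.73 (-5.79 to -0.83) under f/f. The f/f ratios rest on 1 and 2 UMIs in 22 cells, and the difference between the labels was not tested.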

How the results depend on the processing

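No difference between libraries has a replicate, f/f AraC+Dox rests on 22 cells, and low counts limit Bcl11a, Kit and the rule genes. Shares labelled Δ/Δ AraC+Dox, Δ/Δ PBS, then f/f AraC+Dox, then f/f PBS were 0.476, 4.25, 0.0410 and 0.534% at 2 UMIs of both genes, and 0.749, 6.58, 0.0588 and 1.05% after thinning. Without the replicate block, 31 genes were higher and 32 lower against other cells, 7 and 8 against stem-like cells, and 0 and 0 against Flt3-negative cells (edgeR; 455 and 323 at an unadjusted p under 0.05, while blocked DESeq2 gave 554 and 515). The gate at 2 UMIs, with 4 cells labelled f/f AraC+Dox, gave 429 higher against other cells and 260 and 133 against stem-like cells. Against Flt3-negative cells that gate gave 596 and 567. Depth-matched stem-like cells, only 4 of them labelled f/f AraC+Dox, gave 278 and 145. Depth-matched Flt3-negative cells gave 641 and 731. DESeq2 gave 319 and 143 against stem-like cells, and no filter 547 lower. Leaving out 1 library gave 525 to 765 higher and 857 to 1108 lower against other cells, 279 to 691 and 165 to 373 against stem-like cells, and 342 to 1242 and 215 to 1206 against Flt3-negative cells. Sox4 against stem-like cells (log2 -0.01) was -0.12 to 0.10 without 1 library, 0.014 without doublets and 0.40 at 2 UMIs, so its sign changed.

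Between libraries, a floor of 20 CPM gave 105 higher and 151 lower for Δ/Δ PBS over f/f PBS, 543 and 391 for Δ/Δ AraC+Dox over f/f AraC+Dox, 321 and 488 for f/f AraC+Dox over f/f PBS, and 86 and 96 for Δ/Δ AraC+Dox over Δ/Δ PBS. The gate at 2 UMIs gave 66 higher for the first pair and 84 and 116 for the last; thinned gates gave 115 and 132 for the first and 73 lower for the last. Means of per-cell CPM gave 57 higher, 282 lower and 199 higher for the first 3 pairs, and removing doublets 162 higher for the third. Reversed were Ltf in the first pair at 2 UMIs (1.65), Wfdc21 in the third without doublets (0.75), and, without the richest cell, Ly6d in the second (0.13) and Sox4 in the third (-0.017). Stricter gates left under 10 cells labelled f/f AraC+Dox and were not run for the ratios with that library. The paired tests at 2 UMIs were run with its 4 cells. The cause of these changes was not tested. Of the named-gene values under alternatives, 905 kept direction and call or stayed within error, 68 moved, 44 lost their call (42 of them without the block), 4 gained one and 8 reversed.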

Other observations

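Adhesion genes were higher in double positives than in stem-like cells in 7 of 13 and lower in 2 (median log2 fold change 0.46, against 0.00 over all genes). Itgal, the alpha chain of the integrin LFA-1, had 39.1 CPM labelled Δ/Δ AraC+Dox, 30.0 CPM labelled Δ/Δ PBS, 45.9 CPM labelled f/f AraC+Dox and 41.8 CPM labelled f/f PBS in double positives, against 23.5, 15.4, 38.0 and 19.5 CPM in stem-like cells (log2 0.96, SE 0.13, adjusted p = 3.9e-05, edgeR's quasi-likelihood test). Cd44, the hyaluronan receptor (0.82), and Cxcr4, the homing receptor for CXCL12 (0.52), were higher with it, and Itga4 was lower (-0.42). Against other cells Pecam1, an adhesion molecule of endothelium and blood progenitors, was higher in all 4 libraries (log2 1.13), at 180 to 246 CPM against 61.2 to 146 CPM.

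Genes that handle cytarabine and anthracyclines were called in both directions. Against other cells 1 of 18 was higher and 4 lower, against stem-like cells 2 of 15 and 2, and against Flt3-negative cells 1 of 15 and 3. Samhd1, the enzyme that breaks down activated cytarabine, was higher than in stem-like cells (log2 0.78), and Nt5c3, a nucleotidase, lower (-0.71). BCL2 family genes were higher in 4 of 15, 3 of 10 and 4 of 13 and lower in 3, 0 and 1 in the same 3 comparisons. Genes of fatty acid oxidation were called in 1 of 15, 0 of 15 and 3 of 15, all lower.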
